A study of Mus musculus with 15 samples.

Results

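The cadherins and protocadherins of the embryonic mouse brain are described here across 5 brain regions. A gene was taken as a member when its symbol was Cdh followed by digits alone or began with Pcdh. This gave 94 of the 24264 genes measured: 23 Cdh genes, 12 protocadherins that stand alone in the genome, and 59 protocadherins of the alpha, beta and gamma clusters. The first 35 genes are called non-clustered below, and the clustered ones are treated apart because they may share reads. A level is given in RPKM, the reads assigned to a gene scaled for its length and for the reads of the library. That puts genes and samples on a common scale, with limits given below for alar plate 3 and for genes that share reads. A gene was tested when its level reached 1 RPKM in at least 3 libraries, which 13745 genes did, among them 27 of the 35 non-clustered and 57 of the 59 clustered members.

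Of each region 3 samples were dissected under a microscope from E12.5 embryos. The regions were the ventral midbrain, the dorsal midbrain, the alar plate, the forebrain and the hindbrain. All 15 came from C57bl/6 mice carrying green fluorescent protein under the promoter of Th, the gene of the first enzyme of dopamine synthesis, so there is no untreated or wild-type control group and each region is compared with the others. The labels do not say where along the brain the alar plate samples lie, nor whether different embryos gave the 3 samples of 1 region. P-values therefore reflect only how much these samples varied, and part of that may be technical.

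Classical cadherins are calcium-dependent adhesion molecules whose tails bind catenins and, through them, actin. Cells that carry the same type I or type II cadherin tend to adhere and sort together, and in the developing brain type II cadherins are known for marking subdivisions and the nuclei and tracts that form in them. Protocadherins adhere more weakly and signal from the membrane. The delta-1 and delta-2 groups are mostly expressed in brain in region-specific patterns, while each neuron expresses its own set of clustered protocadherins, which serve as a surface identity.

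Pcdh8, Cdh8 and Pcdh18 had the smallest p-values among the non-clustered members in the test across regions, and each was highest in a different one. Their promoters are shown because they are the stretches next to the genes whose levels differed most clearly between regions. Each is the 250 bases before the gene's start, 5′ to 3′ on the minus strand, from RefSeq (GRCm38.p6): Pcdh8 at chr14:79771313-79771562, Cdh8 at chr8:99416472-99416721 and Pcdh18 at chr3:49757317-49757566. Capitals mark matches on either strand to 4 motifs: the TATA box TATAAA, the motif CCAAT, the E-box CANNTG and the homeodomain core TAATTA, which do not overlap here and were picked after the sequences had been seen.
Pcdh8: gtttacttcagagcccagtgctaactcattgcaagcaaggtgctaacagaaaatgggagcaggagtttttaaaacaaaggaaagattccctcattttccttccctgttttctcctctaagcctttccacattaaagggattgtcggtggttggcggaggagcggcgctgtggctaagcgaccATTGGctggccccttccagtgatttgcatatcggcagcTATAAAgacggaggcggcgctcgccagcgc
Cdh8: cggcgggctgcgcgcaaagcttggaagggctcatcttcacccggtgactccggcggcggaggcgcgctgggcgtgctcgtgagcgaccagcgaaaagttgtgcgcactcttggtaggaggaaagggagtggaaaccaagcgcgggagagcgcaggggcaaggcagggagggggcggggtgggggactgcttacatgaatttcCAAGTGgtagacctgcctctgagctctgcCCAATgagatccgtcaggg
Pcdh18: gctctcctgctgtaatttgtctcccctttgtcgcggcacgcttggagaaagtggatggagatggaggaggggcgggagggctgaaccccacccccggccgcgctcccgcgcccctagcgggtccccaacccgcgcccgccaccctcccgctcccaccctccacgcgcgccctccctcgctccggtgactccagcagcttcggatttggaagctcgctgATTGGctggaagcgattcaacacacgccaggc
The Pcdh8 window held 1 match to TATAAA near its end and 1 to CCAAT, and its GC content was 51.2%. The Cdh8 window held 1 CCAAT and 1 CANNTG, with 64.4% GC, and the Pcdh18 window held 1 CCAAT, with 68.0% GC. Of 32851 promoter windows of that length in the table, 12.4% held TATAAA, 33.8% CCAAT, 66.2% CANNTG and 4.84% TAATTA, which none of the 3 held, and the median GC content was 52.4%. CCAAT, the motif the 3 windows had in common, was thus also present in a large share of promoters. The table matched 22 of the 94 members.

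Libraries held 8330771 to 12601534 reads in genes, recovered from the steps of the RPKM values, so that 3 reads of a gene of median length came to 0.0747 to 0.113 RPKM. Six3, a gene of the anterior forebrain and eye field, was at 7.62, 19.9 and 15.5 RPKM in the forebrain libraries, but also at 23.3, 13.6 and 11.25 RPKM in the alar plate and at 5.50 in dorsal midbrain 3. It thus did not separate the labelled forebrain from the alar plate. Foxa2 and Lmx1a, both highest in the ventral midbrain libraries, also differed within the forebrain. Foxa2 was at 0.137, 16.3 and 20.6 RPKM in forebrain 1, 2 and 3, and Lmx1a at 0.207, 6.93 and 41.3. Hindbrain 1 differed from hindbrain 2 and 3 in genes of position along the brain. Hoxa2, a hindbrain gene, was at 0.107 RPKM in hindbrain 1 and at 11.1 and 6.24 RPKM in the other two, and Hoxb2 was at 0, 8.99 and 3.05. En1, a gene of the midbrain and rostral hindbrain, was at 39.7 RPKM in hindbrain 1 and at 8.56 and 4.55 in hindbrain 2 and 3, and En2 was at 37.0, 9.08 and 5.51. Th was at 77.5, 81.7 and 68.9 RPKM in the ventral midbrain. Dorsal midbrain 3, forebrain 1 and alar plate 3 also stood apart from their groups. Gbx2, a gene of the rostral hindbrain and the thalamus, was at 14.1, 111 and 73.0 RPKM in these libraries and at no more than 8.89 in the other 12, and the total RPKM over genes was 489420 in alar plate 3 and 374280 to 390992 elsewhere. Counts are also given without these 3 libraries, which were picked with earlier results of these data known, and, beside the hindbrain results, without hindbrain 1.

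N-cadherin led the non-clustered members in level. Cdh2, which holds the neuroepithelium together, was present at 63.5 to 95.0 RPKM in every library. Pcdh8 (14.7 to 62.4 RPKM), Cdh8 (6.68 to 69.6) and Cdh11, a type II cadherin also known from mesenchyme (9.81 to 25.4), followed by mean level, with Cdh24, another type II cadherin (10.5 to 23.5), in the same range. At the other end, 8 non-clustered members did not reach 1 RPKM in 3 libraries and were not tested. Cdh16, the kidney cadherin, was at 0 in 12 libraries and Cdh19 in 11. Cdh26 was at 0 in 6, Cdh17, an intestinal cadherin, in 5, with its highest level of 0.556 RPKM in alar plate 1, and Cdh3, the P-cadherin of epithelia, in 3. Cdh15, the muscle cadherin, stayed between 0.0881 and 0.710 RPKM and Cdh12, a brain type II cadherin, between 0.290 and 1.22. Cdh23, a tip-link protein of inner-ear hair cells, reached 2.12 RPKM in forebrain 3 and 1.27 in hindbrain 1 and was below 1 RPKM elsewhere.

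Across the 5 regions, 14 of the 27 tested non-clustered members differed (adjusted p under 0.05 in limma's moderated F-test on log2(RPKM + 1), adjusted over all genes tested), which is 51.9% beside 33.7% of all genes. By group these were 1 of 3 type I cadherins, 5 of 11 type II cadherins, 2 of 4 delta-1 protocadherins, 4 of 5 delta-2 protocadherins and 2 of the other 3 protocadherins, whereas Cdh13 alone, of the remaining cadherins, was tested and not called. Pcdh15 and Pcdh20, among those called, reached 1 RPKM in 3 libraries only through the hindbrain and the ventral midbrain, where they were highest, so a difference was a condition of their being tested and they support no count. Without both genes, 12 of 25 members were called across regions, 8 in the hindbrain, 6 in the ventral midbrain, 9 in the dorsal midbrain, 5 in the alar plate and 9 between ventral and dorsal midbrain, in the comparisons described next. The members' median differences given there are over all 27 and still include both genes. Each region was then set against the mean of the other 4, all weighted alike, in two-sided tests. Every difference below is a difference of log2(RPKM + 1), which understates the change of genes below a few RPKM. Without dorsal midbrain 3, forebrain 1 and alar plate 3 the F-test called 24 members, but also 70.7% of all genes.

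**Figure D1:**
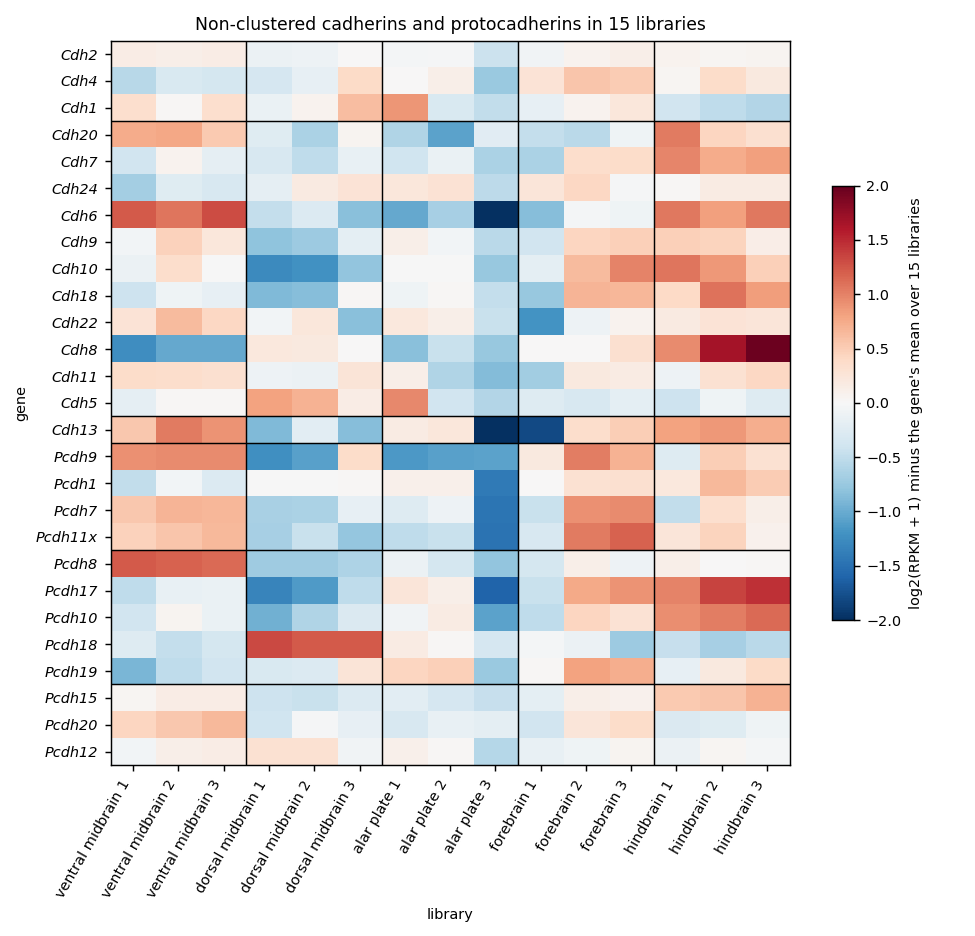
Log2(RPKM + 1) of the 27 tested non-clustered members (rows, grouped by subfamily) in each of the 15 libraries (columns, grouped by region), as the difference from the gene's mean over all libraries, with the colour scale ending at 2 in either direction. Pcdh8 is red in all 3 ventral midbrain libraries, Pcdh18 in all 3 dorsal midbrain libraries and Cdh8, Pcdh10 and Pcdh17 in all 3 hindbrain libraries, while most members are blue in alar plate 3.

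The hindbrain had the most members above the other regions. There 9 members were called, 8 higher and 1 lower (of all genes, 6.3% were called, 4.03% higher and 2.27% lower). The higher ones were the type II cadherins Cdh8, Cdh6, Cdh7, Cdh10 and Cdh20, the delta-2 protocadherins Pcdh17 and Pcdh10, and Pcdh15, which was tested only through its hindbrain libraries and leaves 7 when set aside. Pcdh18 was lower. The median difference of the 27 members was 0.287, against -0.015 for all genes. Without the 3 libraries that stood apart 15 members were called, beside 37.8% of all genes. Leaving out hindbrain 1 left 4, Cdh8, Cdh7 and Pcdh10 higher and Pcdh18 lower, beside 3.48% of all genes, and leaving out hindbrain 2 or hindbrain 3 left 3 each. Here and below, counts from fits without 1 library come without the share of all genes called, unless one is stated. They describe how far the calls depend on that library and are no result about the members. In the other comparisons, without hindbrain 1, 12 of 26 members were called across regions (30.2% of all genes) and 6 in the ventral midbrain (10.1%). The same fit called 7 in the dorsal midbrain (31.1% of all genes), 5 in the alar plate (3.91%) and 9 between ventral and dorsal midbrain (22%).

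Ventral midbrain libraries were marked by Pcdh8, Cdh6, Pcdh9, Cdh20 and Pcdh20, called higher, and by Cdh8 and Pcdh18, called lower, 7 members in all (of all genes, 7.43% were higher and 3.16% lower). Pcdh20 was tested only through its ventral midbrain libraries, and 4 higher members remain when it is set aside. The members' median difference was 0.144 and that of all genes -0.023. Leaving out any 1 of the 3 ventral midbrain libraries reduced the calls to 4. Without alar plate 3 there were 12, and without the 3 libraries that stood apart 18, with 33.5% of all genes called.

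In the dorsal midbrain most of the called members were low: 8 were lower (Cdh10, Pcdh17, Pcdh8, Pcdh9, Pcdh11x, Pcdh10, Cdh9 and Pcdh15), and 2, Pcdh18 and Cdh5, were higher. These 10 of 27 members (37.0%) are close to the 32.0% of all genes called there (18.2% higher and 13.8% lower). Pcdh15 was tested only through its hindbrain libraries, and 7 lower members remain when it is set aside. The members' median difference was -0.342 and that of all genes 0.05. Without dorsal midbrain 1 or without dorsal midbrain 2, 4 members were called, without hindbrain 2 or hindbrain 3 there were 6, and without alar plate 3 there were 15. The share of all genes called is not given for these fits, so the counts may follow it. Without the 3 libraries that stood apart 20 were called, with 64.5% of all genes. Markers of dividing cells (5 genes, summed RPKM) were at 330.5, 287 and 147 in the dorsal midbrain libraries and at 32.9 to 178 in the other 12. Those of neurons were at 1881, 2091 and 2472, against 2155 to 3138 elsewhere. Their part in the members' differences was not tested, and in tissue samples fewer cells of a type cannot be told apart from less RNA per cell.

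The alar plate had 6 called members and all of them were lower: Cdh6, Pcdh9, Cdh8, Cdh20, Pcdh8 and Pcdh15 (of all genes, 1.24% were higher and 3.41% lower). Pcdh15 was tested only through its hindbrain libraries, and 5 members remain when it is set aside. The median difference was -0.407 for the members and -0.008 for all genes. Cdh6, Pcdh9, Cdh8 and Cdh20 were still called without alar plate 3, with differences of -1.18, -1.40, -0.82 and -1.001, and Pcdh8 and Pcdh15 were not. In the forebrain no non-clustered member was called by limma (2.92% of all genes were, 0.618% higher and 2.3% lower), although 7 of the 27 had an unadjusted p under 0.05, as did 20.4% of all genes. Without the 3 libraries that stood apart, 12 forebrain members were called, 10 of them higher, which is close to the 43.7% of all genes called in that fit. Pcdh11x had the largest difference there, 1.16, and Pcdh9 was at 1.15. In that fit the forebrain was forebrain 2 and forebrain 3 alone, the libraries with Foxa2 and Lmx1a given above.

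Between the ventral and the dorsal midbrain, the pair of regions that lie at opposite ends of the dorsoventral axis, 11 members differed. Pcdh8, Cdh6, Pcdh9, Pcdh11x, Cdh10, Cdh20, Cdh9, Pcdh20 and Pcdh15 were higher ventrally, by 1.85, 1.73, 1.58, 1.18, 1.17, 0.95, 0.79, 0.74 and 0.50, and Pcdh18 and Cdh8 lower, by -1.62 and -1.23 (of all genes, 11.4% were higher ventrally and 12.4% lower). Pcdh20 and Pcdh15 were tested only through their ventral midbrain and hindbrain libraries, and 7 higher members remain when both are set aside. The members' median was 0.466 and that of all genes -0.052. Without dorsal midbrain 1 the count was 5, without dorsal midbrain 2 or ventral midbrain 2 it was 6, without ventral midbrain 3 it was 7, and without the 3 libraries that stood apart it was 20, with 58.1% of all genes called.

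**Figure D2:**
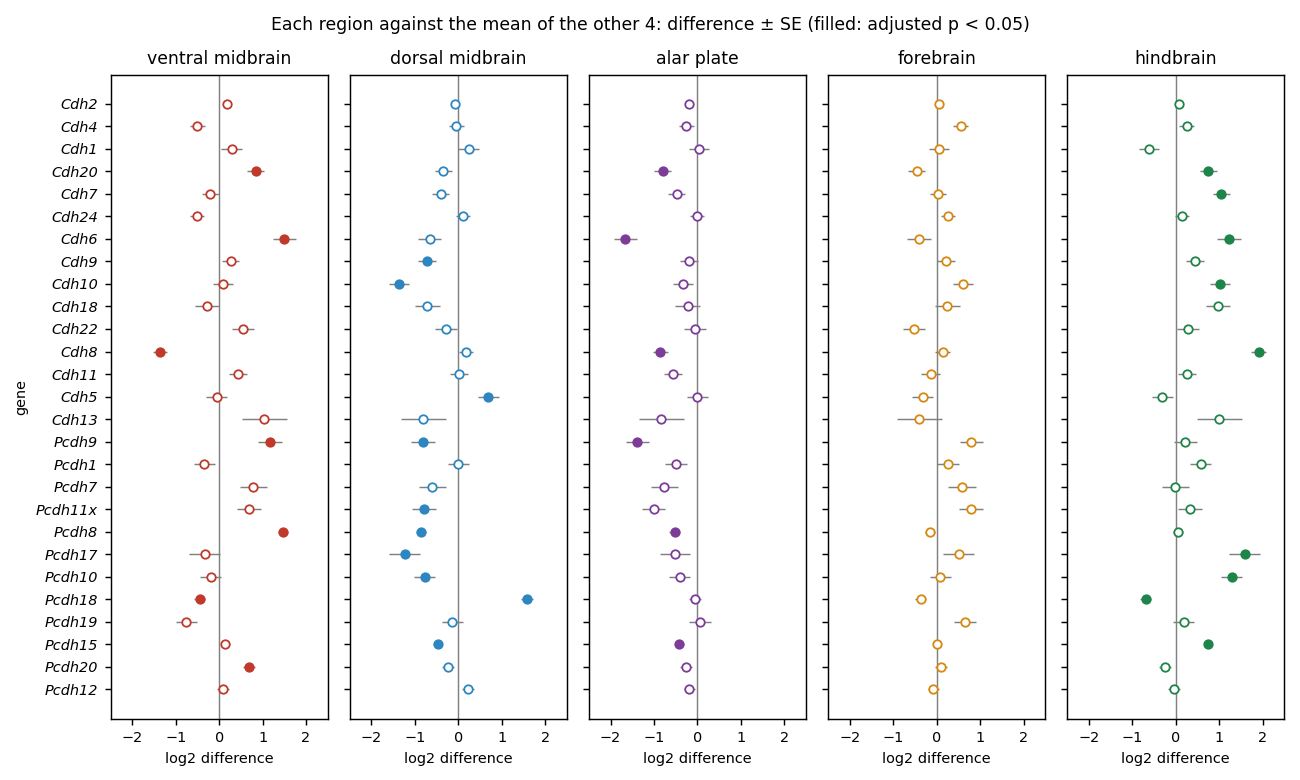
Difference of each region from the mean of the other 4 on the log2(RPKM + 1) scale (x axis, point ± SE, 3 samples per region) for the 27 tested non-clustered members (y axis), with filled points where the adjusted p is under 0.05. The hindbrain panel has 8 filled points to the right of 0, Pcdh15 included, the alar plate panel 6 to its left, and the forebrain panel none.

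Among the type I cadherins, Cdh2 varied little: its region means ran from 77.1 ± 11.7 RPKM (SD, n = 3) in the alar plate to 94.4 ± 0.898 in the ventral midbrain, and it did not pass the F-test (adjusted p = 0.149). Cdh4, R-cadherin, which is expressed by subsets of neurons and their axons, was the 1 type I cadherin called by the F-test (adjusted p = 0.0476). It had no call in any comparison that names a region, and did not pass the F-test without hindbrain 1. It was at 8.57, 10.4 and 10.1 RPKM in the ventral midbrain and at 10.2, 11.6 and 17.3 in the dorsal midbrain. The alar plate libraries had 13.1, 14.3 and 7.42 RPKM of Cdh4, the forebrain 16.0, 19.6 and 18.9, and the hindbrain 13.4, 17.2 and 15.1. The 3 forebrain libraries thus lay above the ventral midbrain libraries, but forebrain and hindbrain overlapped. Cdh1, the E-cadherin of epithelia, ranged from 0.0539 to 1.92 RPKM and was not called.

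The type II cadherins carried the clearest differences among the Cdh genes, and Cdh8, known for patchy expression in early brain subdivisions, the clearest of all. Its level in the hindbrain libraries was 33.6, 56.6 and 69.6 RPKM. In the dorsal midbrain it was 19.97, 19.7 and 17.2, and in the forebrain 17.1, 17.2 and 21.6. The alar plate had 9.11, 12.2 and 9.73 RPKM and the ventral midbrain 6.68, 7.93 and 7.92. So every hindbrain library lay above all others, every ventral midbrain library lay below all others, and dorsal midbrain and forebrain overlapped. Cdh8 was higher in the hindbrain by 1.91 ± 0.17 (SE, adjusted p = 1.48e-05), and lower in the ventral midbrain by -1.36 ± 0.17 (adjusted p = 0.000113) and in the alar plate by -0.85 ± 0.17 (adjusted p = 0.0116). These 3 calls of Cdh8 held in each of the 25 alternative analyses.

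Cdh6, a type II cadherin that marks parts of the early neural tube, was shared by ventral midbrain and hindbrain. It stood at 14.9, 13.3 and 15.8 RPKM in the ventral midbrain and at 13.2, 11.1 and 13.2 in the hindbrain. Dorsal midbrain libraries held 3.89, 4.66 and 2.82 RPKM, the alar plate 2.34, 3.32 and 0.394, and the forebrain 2.79, 5.65 and 5.40. No library of these 3 regions reached the lowest hindbrain library, and ventral midbrain was above hindbrain with a narrow gap. The difference of Cdh6 was 1.50 ± 0.27 in the ventral midbrain (adjusted p = 0.0023), 1.23 ± 0.27 in the hindbrain (0.0154) and -1.66 ± 0.27 in the alar plate (0.00373). The hindbrain call was lost without any 1 of the hindbrain libraries. Without alar plate 3, its lowest library, the alar plate difference was -1.18.

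Cdh20, another type II cadherin of the neural tube, had a like distribution at lower level. Ventral midbrain libraries held 3.86, 3.95 and 3.16 RPKM and hindbrain libraries 4.95, 2.93 and 2.61. The dorsal midbrain was at 1.45, 0.875 and 2.02, the alar plate at 0.903, 0.378 and 1.48, and the forebrain at 1.09, 1.002 and 1.75. Every library of ventral midbrain and hindbrain was above every library of the other 3 regions. It was higher in the ventral midbrain by 0.85 ± 0.20 (adjusted p = 0.013) and in the hindbrain by 0.74 ± 0.20 (0.0416), and lower in the alar plate by -0.80 ± 0.20 (0.0373). The ventral midbrain call of Cdh20 was lost without ventral midbrain 1 or 2. The hindbrain call was lost without any 1 of the 3 hindbrain libraries and, in all, was lost or not tested in 14 of the 25 alternatives, and the alar plate call in 12.

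Cdh7 and Cdh10 were highest in the hindbrain. Cdh7, which is known from hindbrain and spinal neurons, was at 3.83, 3.12 and 3.33 RPKM there, above all other libraries. The ventral midbrain had 0.899, 1.58 and 1.18 RPKM, the dorsal midbrain 0.976, 0.732 and 1.23, the alar plate 0.872, 1.26 and 0.595, and the forebrain 0.589, 2.16 and 2.17. Its hindbrain difference was 1.05 ± 0.19 (adjusted p = 0.00469). Cdh10, a brain type II cadherin, was at 10.4, 8.79 and 6.50 RPKM in the hindbrain and at 3.72, 7.38 and 9.66 in the forebrain, so these regions overlapped. It was at 3.99, 5.84 and 4.35 RPKM in the ventral midbrain and at 4.34, 4.33 and 2.18 in the alar plate. The dorsal midbrain had 1.23, 1.33 and 2.10 RPKM, all below every other library. Cdh10 was lower in the dorsal midbrain by -1.37 ± 0.23 (adjusted p = 0.00179), a call that held in all 25 alternatives, and higher in the hindbrain by 1.01 ± 0.23 (0.0203), a call lost without hindbrain 1 or 2.

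Cdh9, a type II cadherin like Cdh10, did not pass the F-test (adjusted p = 0.0584) but was lower in the dorsal midbrain, where it was at 0.0576, 0.109 and 0.606 RPKM, by -0.72 ± 0.20 (adjusted p = 0.0181). Its means elsewhere were 0.680 to 1.36 RPKM, and the call was lost without dorsal midbrain 1 or 2. Cdh5, the VE-cadherin of blood vessel walls, was called higher in the dorsal midbrain by 0.69 ± 0.24 (adjusted p = 0.0455), but lost that call in 14 of 25 alternatives. It was at 13.2, 12.1 and 7.97 RPKM there and at 14.7, 5.23 and 4.38 in the alar plate, so 1 alar plate library exceeded all of the dorsal midbrain. The summed level of 8 other endothelial markers was 62.9, 66.1 and 48.8 RPKM in the dorsal midbrain and 38.0 to 56.2 in the other libraries, and their part in the Cdh5 difference was not tested. Cdh11, Cdh18, Cdh22, Cdh24 and the GPI-anchored Cdh13 were tested and had no call in any region. Cdh13 had wide spreads, for instance 14.5, 15.2 and 1.64 RPKM in the alar plate and 2.94, 16.7 and 18.5 in the forebrain.

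**Figure D3:**
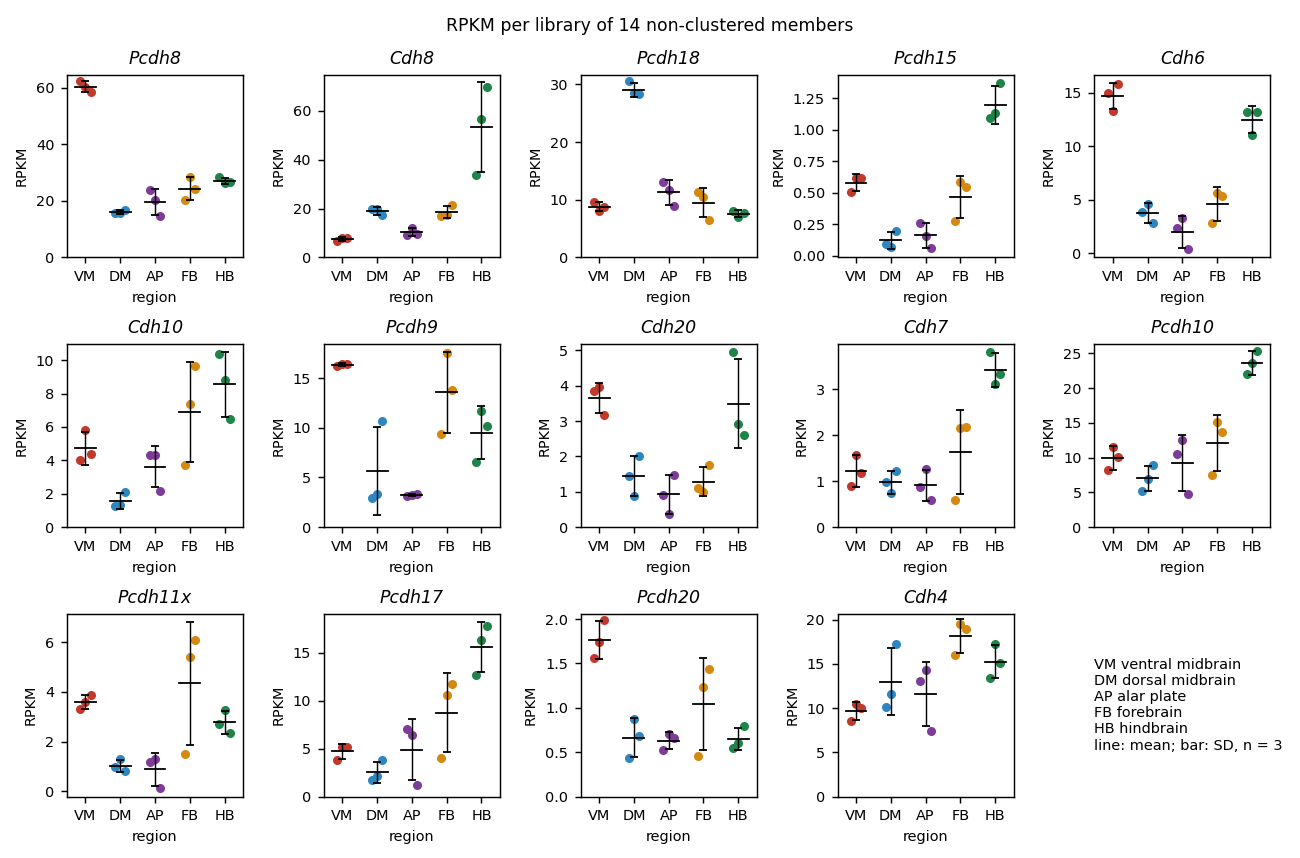
RPKM (y axes, linear, each with its own range) of the 14 non-clustered members with the smallest p-values in the test across regions, per library (points), with the mean (line) and SD (bar, n = 3) of each region (x axes). The points of Pcdh8 in ventral midbrain, Pcdh18 in dorsal midbrain and Cdh8, Cdh7 and Pcdh10 in hindbrain stand clear of all other points.

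The delta-2 protocadherins, whose members include several that bind the actin-regulating WAVE complex, divided by region. Pcdh8, a protocadherin first known from activity-induced expression in neurons, was at 62.4, 60.4 and 58.5 RPKM in the ventral midbrain. It was at 15.6, 15.7 and 16.7 in the dorsal midbrain, 23.98, 20.3 and 14.7 in the alar plate, 20.3, 28.4 and 24.3 in the forebrain and, for the hindbrain, 28.4, 26.3 and 26.6. The highest library outside the ventral midbrain, at 28.4 RPKM, was far below its lowest. The difference of Pcdh8 was 1.47 ± 0.12 in the ventral midbrain (adjusted p = 3.49e-06) and -0.85 ± 0.12 in the dorsal midbrain (0.000573), and both calls held in all 25 alternatives. In the alar plate it was -0.53 ± 0.12 (adjusted p = 0.0239), a call lost without alar plate 3.

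Pcdh18 had the opposite order to Pcdh8 in the midbrain, with 30.5, 28.5 and 28.3 RPKM in the dorsal midbrain and 9.56, 8.06 and 8.80 in the ventral. It was at 13.1, 11.7 and 8.96 RPKM in the alar plate, 11.3, 10.5 and 6.57 in the forebrain and, for the hindbrain, 8.12, 6.94 and 7.63. The dorsal midbrain libraries were above all others, and the other 4 regions lay close together. Its dorsal midbrain difference was 1.57 ± 0.13 (adjusted p = 1.78e-05) and held in all 25 alternatives. The hindbrain difference was -0.69 ± 0.13 (adjusted p = 0.00747), a call lost without hindbrain 2 or 3, and the ventral midbrain difference of -0.45 ± 0.13 (0.0491) was lost in 17 alternatives. Markers of meninges and mesenchyme (8 genes, summed RPKM) were also high in the dorsal midbrain, at 120.2, 127 and 66.9. They were higher still in alar plate 1, at 165, where Pcdh18 was at 13.1 RPKM, and stood at 9.03 in alar plate 2, where it was at 11.7. The part of these tissues in the Pcdh18 difference was not tested.

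Pcdh10 and Pcdh17, delta-2 protocadherins with known parts in axon growth and sorting, were highest in the hindbrain. Pcdh10 was at 21.95, 23.6 and 25.3 RPKM there. It was at 8.21, 11.5 and 10.04 in the ventral midbrain, 5.19, 6.93 and 8.87 in the dorsal midbrain, 10.5, 12.51 and 4.72 in the alar plate and 7.51, 15.2 and 13.7 in the forebrain, all below the hindbrain. The hindbrain difference of Pcdh10 was 1.28 ± 0.24 (adjusted p = 0.00607), lost without hindbrain 3. The dorsal midbrain difference was -0.77 ± 0.24 (0.0277), lost without dorsal midbrain 1 or 2. Pcdh17 was at 12.6, 16.3 and 17.7 RPKM in the hindbrain, 3.99, 10.5 and 11.7 in the forebrain, 7.07, 6.37 and 1.24 in the alar plate, 3.80, 5.14 and 5.18 in the ventral midbrain and 1.72, 2.11 and 3.77 in the dorsal midbrain. Hindbrain was above every other library here too, with forebrain 2 and 3 next. The differences of Pcdh17 were 1.59 ± 0.35 in the hindbrain (adjusted p = 0.0179), lost without any 1 of its libraries, and -1.24 ± 0.35 in the dorsal midbrain (0.019), lost without dorsal midbrain 1 or 2. Pcdh19, the X-linked gene of an epilepsy of girls, was at 2.96 to 12.03 RPKM and was not called.

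Of the delta-1 protocadherins, whose tails carry a protein phosphatase-1 binding motif, Pcdh9 and Pcdh11x were called. Pcdh9 was at 16.2, 16.4 and 16.5 RPKM in the ventral midbrain and 9.41, 17.5 and 13.8 in the forebrain. The alar plate had 3.11, 3.26 and 3.30, the hindbrain 6.58, 11.7 and 10.2, and the dorsal midbrain 2.89, 3.29 and 10.7. The alar plate libraries agreed closely and were matched by 2 of the dorsal midbrain libraries, while dorsal midbrain 3 lay with the hindbrain. Its differences were 1.17 ± 0.27 in the ventral midbrain (adjusted p = 0.0137), -1.38 ± 0.27 in the alar plate (0.0125) and -0.81 ± 0.27 in the dorsal midbrain (0.0381). The alar plate call held in all 25 alternatives, the ventral midbrain call was lost without any 1 of the ventral midbrain libraries, and the dorsal midbrain call was lost in 9 alternatives. Without dorsal midbrain 3 the dorsal midbrain difference of Pcdh9 was -1.31.

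Pcdh11x, on the X chromosome, was at 3.32, 3.59 and 3.895 RPKM in the ventral midbrain, 0.981, 1.30 and 0.832 in the dorsal midbrain, 1.202, 1.32 and 0.128 in the alar plate, 1.51, 5.41 and 6.097 in the forebrain and, for the hindbrain, 2.70, 3.28 and 2.34. All dorsal midbrain and alar plate libraries were below all others. The dorsal midbrain difference of -0.79 ± 0.27 (adjusted p = 0.0426) was lost or not tested in 16 of 25 alternatives. The alar plate difference of Pcdh11x did not pass the test. Pcdh7, at 1.01 to 9.65 RPKM, and Pcdh1, at 2.13 to 12.01, were the other 2 delta-1 genes and were not called.

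The remaining non-clustered protocadherins were near the limit of 1 RPKM. Pcdh15, the partner of Cdh23 in the tip links of hair cells, was at 1.09, 1.13 and 1.37 RPKM in the hindbrain, 0.503, 0.615 and 0.618 in the ventral midbrain and 0.278, 0.582 and 0.543 in the forebrain. In the dorsal midbrain its level was 0.0913, 0.0710 and 0.199 RPKM, and in the alar plate 0.260, 0.160 and 0.0608. It entered the test only through its 3 hindbrain libraries, so its differences are given without a p-value: 0.74 ± 0.10 (SE) in the hindbrain, -0.48 ± 0.10 in the dorsal midbrain and -0.42 ± 0.10 in the alar plate. The last turned to 0.06 when each library was corrected for gene length (Pcdh15 is longer than 99.8% of tested genes by the ratio of reads to RPKM). Pcdh20 was at 1.56, 1.74 and 1.98 RPKM in the ventral midbrain, above every other library. The forebrain had 0.458, 1.24 and 1.44, the hindbrain 0.552, 0.608 and 0.790, the dorsal midbrain 0.437, 0.871 and 0.682 and the alar plate 0.523, 0.708 and 0.659. Pcdh20 reached 1 RPKM in these 3 libraries and in only 2 others, forebrain 2 and 3, and so entered the test through the region where it was highest. Its ventral midbrain difference, 0.68 ± 0.14, is likewise given without a p-value. Pcdh12, an endothelial protocadherin, was at 0.550 to 1.85 RPKM and was not called.

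Several pairs of members had like profiles over the 15 libraries. Among 351 pairs of the 27 members, Pearson's r of log2(RPKM + 1) had a median of 0.417. The highest values were 0.971 for Pcdh17 and Pcdh10, 0.935 for Cdh9 and Cdh10 and 0.926 for Cdh7 and Pcdh10. With each region's mean removed they were 0.958, 0.951 and 0.781, so these pairs also varied together among the samples of a region. That was not particular to them. Pcdh7 and Pcdh19, at 0.352, were at 0.919 with region means removed, whereas Cdh20 and Cdh6 went from 0.734 to -0.528. The lowest values over the 15 libraries all involved Pcdh18: -0.834 with Cdh10, -0.746 with Cdh9 and -0.685 with Pcdh15. With region means removed they were -0.248, -0.19 and -0.0726. The points share libraries and their spread within regions, part of which lies in the libraries that stood apart, so these values are a description.

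Alar plate 3 was low for most members. On the log2(RPKM + 1) scale, the 27 members differed in this library from the mean of alar plate 1 and 2 by a median of -0.638, and 23 of them were below both, against 46.0% of all genes tested. Cdh13 (-2.59), Pcdh17 (-1.78), Pcdh1 (-1.52) and Cdh6 (-1.45) had the most negative deviations and Cdh20 (0.617) was above. The library's deviation also moved with gene length. With all genes tested cut by length into 4 equal bins, the median deviation was 0.555 in the shortest bin, then 0.173 and -0.139, and -0.554 in the longest. The members' median length was at the 74.3 percentile, and the 13 in the longest bin had a median of -0.777. Cdh13, at the 37.7 percentile of length, and Cdh6 were among the shorter members. The summed level of 5 choroid plexus markers was 95.2 RPKM in alar plate 3 and at most 11.8 in any other library. Most of the 95.2 was Ttr alone, at 89.3 RPKM. Clic6 (2.44) and Kcne2 (1.58) were also highest in alar plate 3, whereas Folr1 (1.62) and Kl (0.187) were exceeded in other libraries. The 11.8, in ventral midbrain 1, was mostly Folr1, at 11.4 RPKM. What part gene length and these markers have in the members' low values was not tested.

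**Figure D4:**
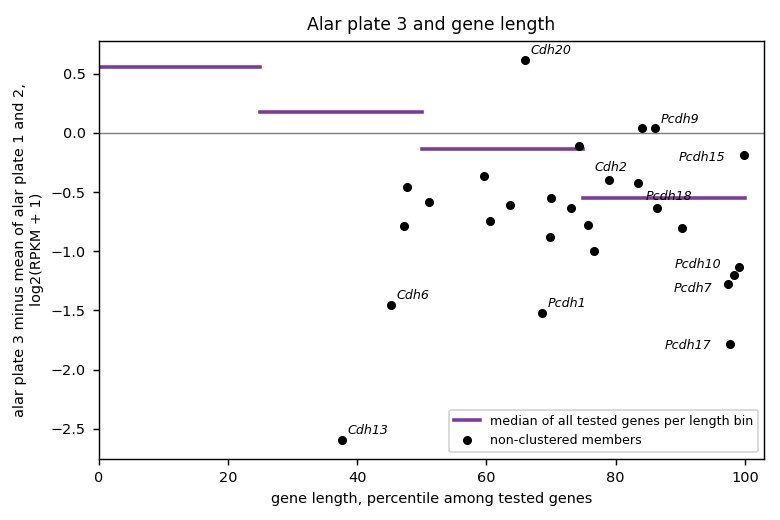
Difference of alar plate 3 from the mean of alar plate 1 and 2 on the log2(RPKM + 1) scale (y axis) against gene length as a percentile among the tested genes (x axis), with the 27 tested non-clustered members as points, some of them named, and the median of all tested genes in each of 4 length bins as bars. The bars fall from 0.555 to -0.554, and Cdh13, Pcdh17, Pcdh1 and Cdh6 lie well below the bar of their bin.

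The clustered protocadherins were counted apart. In the alpha and gamma clusters each gene's variable exon is spliced to constant exons that the whole cluster shares, whereas beta genes have no shared exons. Within a library the 14 alpha genes differed by a factor of 1.02 to 1.18 in reads between the highest and the lowest, and the 22 gamma genes by 1.09 to 1.38, but the 21 beta genes with recovered reads by 7.78 to 36.0. Over the 15 libraries, pairs of alpha genes correlated at 0.993 to 1.0, gamma genes at 0.959 to 1.0 and beta genes at 0.416 to 0.939 (Pearson's r of log2(RPKM + 1)). The counts of alpha and gamma genes below therefore stand for about 1 measurement a cluster.

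All 14 alpha and all 22 gamma genes were lower in the dorsal midbrain than in the other regions, with medians of -0.65 and -0.557, as were 2 of the 20 beta genes tested (13.8% of all genes were called lower there). Across the 5 regions the F-test called 38 of the 57 tested clustered genes: 13 alpha, 22 gamma and 3 beta (33.7% of all genes). Without dorsal midbrain 1, or without dorsal midbrain 2, that count was 2, so it rests on these libraries, and without ventral midbrain 2, ventral midbrain 3, hindbrain 2 or hindbrain 3 it was 23 to 25. Summed over the alpha genes, the level was 88.2, 103.1 and 135.5 RPKM in the dorsal midbrain and 124 to 238 in the other 12 libraries. For gamma it was 1050, 1164 and 1437 RPKM against 1521 to 2068. These sums count shared reads once for each gene, so they serve only for comparison between libraries. No dorsal midbrain library reached another region in the gamma sum, while dorsal midbrain 3 exceeded alar plate 3 and forebrain 1 in the alpha sum. Tested as 1 feature each, the alpha sum differed in the dorsal midbrain by -0.71 ± 0.18 (adjusted p = 0.0105), the gamma sum by -0.57 ± 0.12 (0.00416) and the beta sum by -0.55 ± 0.20 (0.0546). Markers of neurons, the cells in which clustered protocadherins are mainly known, were also lowest in dorsal midbrain 1 and 2, and their part was not tested.

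Pcdhgc3, a gamma gene of the C type that is expressed outside the random choice of the others, was the most abundant clustered gene, with means of 107.6 RPKM in the ventral midbrain, 108.1 in the hindbrain, 68.9 in the dorsal midbrain, 88.5 in the alar plate and 103.8 in the forebrain. Reads above the lowest gene of the gamma cluster are the part of its signal that cannot be shared by the whole cluster. Pcdhgc3 had 1151, 1529 and 1376 such reads in the ventral midbrain, 764, 935 and 1116 in the dorsal midbrain, 1393, 1347 and 330 in the alar plate, 1171, 1210 and 1487 in the forebrain and, for the hindbrain, 1464, 1616 and 1627, not scaled for depth. This was 7.93% to 27.5% of its reads. The dorsal midbrain was below every other library except alar plate 3. The next gamma gene, Pcdhgb6, had a mean of 314 such reads, and Pcdhac2, the highest of the alpha cluster, 72.9.

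Beta genes are given singly, because their reads within a library differed by more than those of alpha or gamma genes. Whether beta genes share reads was not tested. Pcdhb17, at 2.52 to 7.62 RPKM the highest of them, was at 3.08, 2.52 and 3.599 RPKM in the dorsal midbrain, 4.64, 5.34 and 4.77 in the ventral midbrain, 5.18, 4.77 and 3.13 in the alar plate, 4.89, 6.03 and 6.697 in the forebrain and, for the hindbrain, 5.61, 7.62 and 7.19. The dorsal midbrain overlapped only with alar plate 3. It was lower there by -0.66 ± 0.13 (adjusted p = 0.00398) and higher in the hindbrain by 0.52 ± 0.13 (0.0376). Pcdhb20 was lower in the dorsal midbrain by -0.57 ± 0.14 (adjusted p = 0.00895), with means of 1.89 RPKM there and 3.902 in the hindbrain, and Pcdhb18 passed the F-test alone (0.0191). Pcdhb7 was the next in level, with means of 2.796 RPKM in the dorsal midbrain to 4.36 in the hindbrain. Pcdhb1 was at 0 in all 15 libraries, and Pcdhb13 stayed below the limit for testing. The entry named Pcdha4-g, whose gene model is not given in the sources used here, was at 13.96 to 33.5 RPKM and was not called (adjusted p = 0.0633).

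**Figure D5:**
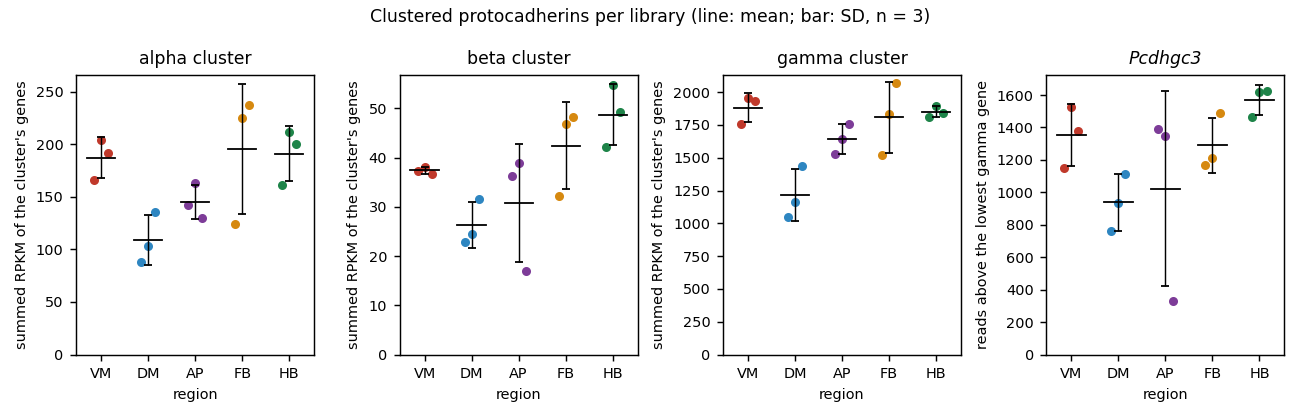
Summed RPKM of the alpha, beta and gamma genes and, in the last panel, reads of Pcdhgc3 above the lowest gamma gene (y axes, from 0), per library (points) with the mean (line) and SD (bar, n = 3), for ventral midbrain (VM), dorsal midbrain (DM), alar plate (AP), forebrain (FB) and hindbrain (HB) on the x axes. The dorsal midbrain libraries lie at 1050 to 1437 RPKM in the gamma panel, below all the other libraries.

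Genes that act with the cadherins were followed in 5 lists. Of the catenins and junction partners, which tie cadherin tails to actin, 6 of 12 tested were called by the F-test (50.0%, beside 33.7% of all genes). Ctnnb1, beta-catenin, had means of 589.8 ± 101 RPKM in the dorsal midbrain and 281 to 392.2 elsewhere, a difference of 0.90 ± 0.13 (adjusted p = 0.000781). Ctnna1 and Ctnnal1, both of the alpha-catenin family, were higher there by 0.75 and 0.56, and Pkp4, a p120-like protein, by 0.24. The larger difference of Pkp4 was in the alar plate, at -0.35 ± 0.06 (adjusted p = 0.00762). Its means were 15.8 RPKM in the dorsal midbrain and 15.7 in the hindbrain. Of the 12 partners tested, 5 were higher and 2 lower in the dorsal midbrain, where 18.2% of all genes were higher and 13.8% lower. Among the larger cadherin superfamily, 5 of 11 tested were called by the F-test (45.5%, beside the same 33.7%). Ret, a receptor kinase with cadherin-like domains, was at 10.9 ± 0.750 RPKM in the ventral midbrain and 0.912 to 1.58 elsewhere. Clstn2, a calsyntenin, was at 15.3 ± 0.312 against means of 1.54 to 6.996, and Celsr1, of planar cell polarity, at 21.2 ± 0.334 against 4.24 to 9.49. Their ventral midbrain differences were 2.51, 1.996 and 1.65, and Clstn3 was lower in the dorsal midbrain by -0.75.

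Cadherin proteases had 3 of 6 genes called by the F-test (50.0%, beside 33.7% of all genes). Pcsk6, a proprotein convertase, was at 5.47 ± 0.677 RPKM in the ventral midbrain and 0.679 to 1.89 elsewhere, a difference of 1.699 ± 0.10 (adjusted p = 2.49e-07), and Furin, which removes the cadherin prodomain, was higher there by 0.46. Pcsk5 passed the F-test and no comparison of 1 region. Of 13 regulators of the clustered genes, 6 passed the F-test (46.2%, beside 33.7% of all genes). In the dorsal midbrain, the region with the most calls over all genes, 9 of the 13 were higher (69.2%, beside 18.2% of all genes). Dnmt3b, which methylates cluster promoters, was higher by 0.83 ± 0.11 (adjusted p = 0.000529), the cohesin genes Rad21 and Smc1a by 0.58 and 0.46, and Ctcf, whose protein loops promoters to enhancers, by 0.45. The dividing-cell markers, which are 5 other genes, were high in these libraries as well, as given above, and their part in the regulators' differences was not tested. Protocadherin effectors had 4 of 10 genes called by the F-test, a share (40.0%) close to that of all genes (33.7%): Fyn, a kinase, was lower in the dorsal midbrain by -0.31, Ptk2 and Cyfip1, of focal adhesion and the WAVE complex, were higher there by 0.35 and 0.37, and Wasf1, the WAVE protein itself, was lower in the ventral midbrain by -0.30.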

How the data were processed

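RNA was extracted with Trizol and libraries were made from 200 ng with a TruSeq kit, per the labels' protocols. The authors deposited 1 table of RPKM values for 24264 genes in 15 samples; the submitters' processing notes name Bowtie and mm9, while for annotation, counting and strand nothing is given in the sources used here. RPKM values were whole multiples of a step for 99.9% of 16612 genes (tolerance 0.02 to 0.15 reads), and reads recovered from them served for depth, relative gene length and the cluster comparison only; no test was run on them. Tests used limma 3.58.1 in R 4.3.3 with a variance trend on log2(RPKM + 1), in 1 fit of 5 regions over genes with at least 1 RPKM in 3 libraries, with Benjamini-Hochberg adjustment within each of 7 comparisons at 0.05. The fit was checked on simulated data. Members and lists were chosen with earlier results of these data known. All non-clustered members could be named; the 14 with the smallest F-test p have their values in every sample, and other lists are shown by their 4 smallest. Clustered genes were named by level and F-test p. Replicate numbers were not used as pairs. Alternatives were another pseudocount, filter, scaling, variance model, a length correction, a replicate block and leaving out libraries. No batch or date is in the labels. Promoter coordinates are of GRCm38.p6, not the authors' build.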

Additional observations from a re-analysis of the deposited data

How the results depend on the processing

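Of 43 calls of non-clustered members in the 6 comparisons that name a region, 15, on 6 genes, held in all 25 alternatives: those of Cdh8, Pcdh8 (except in the alar plate), Pcdh18 (dorsal midbrain, and ventral against dorsal midbrain), Cdh6 (except in the hindbrain), Pcdh9 (alar plate, and ventral against dorsal midbrain) and Cdh10 (dorsal midbrain). The 43 include calls of Pcdh15 and Pcdh20, which support no count, while the 15 include none of theirs. Over the named members, 903 alternative values kept their direction and call, and 143 kept the direction and lost the call. Another 2 reversed, both for Pcdh15 in the alar plate, at 0.061 under the length correction with and without the replicate block. With a filter of 5 RPKM, which tests fewer genes, the F-test called 9 members, the ventral midbrain comparison 4 and the comparison of ventral with dorsal midbrain 6. Among members with a call above, Cdh20, Cdh7, Cdh9, Pcdh11x, Pcdh15 and Pcdh20 were not tested under that filter. Without dorsal midbrain 3, forebrain 1 and alar plate 3 the counts were 24 (F-test), 18 (ventral midbrain), 20 (dorsal midbrain), 12 (forebrain), 15 (hindbrain) and 20 (ventral against dorsal midbrain); the share of all genes called rose as well. In the forebrain the length correction called 1 member and the length correction with replicate block 3, beside 0; the cause was not tested. Leaving out 1 library at a time gave 12 to 20 members for the F-test, 4 to 12 for the ventral midbrain, 4 to 15 for the dorsal midbrain, 4 to 9 for the alar plate, 0 to 2 for the forebrain, 3 to 10 for the hindbrain, 5 to 15 for ventral against dorsal midbrain and 2 to 46 for the clustered genes. As 1 sum per cluster, 2 of 3 sums were called. Samples of different regions share replicate numbers 1 to 3, and deviations of same-numbered samples from their region means correlated at -0.175 to 0.405. Differently numbered samples were not set beside them, so these values cannot decide whether the numbers stand for pairs. The labels do not say so, and the numbers were not taken as pairs. With the replicate block the counts were 14 (F-test), 7 (ventral midbrain), 11 (dorsal midbrain), 6 (alar plate), 0 (forebrain), 10 (hindbrain), 11 (ventral against dorsal midbrain) and 39 clustered genes. No share of all genes is given here for the filter of 5 RPKM, for leaving out 1 library or for the replicate block. Those counts describe only how the calls depend on the setting. Precision is limited by 3 samples a region, and 3 reads of a gene of median length come to 0.0747 RPKM in the deepest library and 0.113 in the shallowest.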
